A study of Homo sapiens with 6 samples.

Results

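The genes described here are 46 human genes whose products load, unwind, copy and protect DNA at replication origins and forks. They were taken as a named list of licensing factors, helicase, GINS, polymerase, clamp loader and other fork genes, and each was matched by its symbol among the 63140 genes of the count table. All 46 passed the filter on low counts and so belong to the 17427 genes tested. The cells were HEK293T, an established line from human embryonic kidney that carries the adenoviral E1A gene and the SV40 large T antigen, both of which make proteins that bind the retinoblastoma family. A group of 3 libraries came from cells transfected with the miR-34a duplex, and the other 3 libraries from cells given the AllStars negative control of Qiagen. In both groups RNA was taken 18 h after transfection, and the study asked how the shape of a pairing between a microRNA and its target bears on repression. The labels call the 3 libraries of a group biological replicates, and every p-value measures a difference against the spread within those groups. In bulk RNA, fewer cells of a cell-cycle phase and less RNA per cell cannot be told apart.

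Before S phase, the origin recognition complex (ORC) marks origins, and CDC6 and CDT1 help it to load the MCM2-7 helicase as an inactive double ring. Geminin, made from GMNN, binds CDT1 and prevents loading once S phase has begun. The kinase CDC7 with its activator DBF4, and the factors CDC45, MCM10 and GINS, turn the loaded ring into an active helicase, at which the polymerases alpha, epsilon and delta then work. Many of these genes are transcribed ahead of S phase under E2F transcription factors. The gene of the microRNA miR-34a is induced by p53, and miR-34a pairs with messenger RNAs mainly through its seed. The guide strand, miR-34a-5p, is shown because the matches described further on are complements of its seed. The seed, bases 2 to 8, is in capitals.
miR-34a-5p: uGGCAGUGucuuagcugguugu

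The libraries held 24728662 to 36650331 counts, and mitochondrially encoded genes took 2.86 to 4.71% of them. Of 6 markers of the HEK293 line, VIM stood at 182 to 228 CPM (counts scaled to a common library size), KRT18 at 36.1 to 47.4 CPM, KRT8 at 11.2 to 11.98 CPM, and PAX2 only at 1.14 to 2.24 CPM. The neurofilament genes NEFM and NEFL fell by 0.22 and 0.32 on the log2 scale (edgeR adjusted p = 0.037 and 0.0041), from 178 and 65.3 CPM in the control. Their calls were kept in 2 and 5 of 6 fits that left out a library. Of 9 markers of blood, endothelium, fibroblast and liver, 7 had at most 10 counts in every library, with CD3E, COL1A2 and DCN at 0. The summed level of the 9 was 22.9 to 29.7 CPM in the control libraries and 23.5 to 25.9 CPM in the miR-34a libraries, most of it COL1A1.

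With miR-34a, 7 of the 46 genes fell, none rose, and 39 were not called (edgeR quasi-likelihood test, Benjamini-Hochberg adjusted p under 0.05 over all genes tested). Over all genes tested, 6.70% were called lower and 5.38% higher, against 15.2% and 0 of these genes. The 7 are the helicase subunits MCM2, MCM3 and MCM5, the GINS subunits GINS1 and GINS3, the loading factor CDT1 and its inhibitor GMNN. No subunit of ORC, of the clamp loader RFC, of the single-strand binding protein RPA or of the 3 polymerases was called. The median log2 fold change of the 46 was -0.02, beside 0.00 over all genes, with 24 genes below 0 and 22 above. In 10 genes every miR-34a library lay below every control library and in 5 every one lay above. These are 21.7% and 10.9% of the 46, beside 14.2% and 13.1% of all genes tested. Among the 39 uncalled genes, POLD1, FEN1 and LIG1 were lower and PRIM2 and WDHD1 higher at an unadjusted p under 0.05. Over all genes tested, 1123 of 15322 uncalled genes were lower and 1031 higher at that level. With called genes included, 13.1% of all genes passed it downward and 11.3% upward. DESeq2 called 8 of the 46 lower (8.28% of all genes it tested) and limma voom 7 (6.69%). Neither called a gene of the list higher, beside 7.49 and 5.42% of all genes. Over all genes the edgeR test called 12.1% in either direction. The list is therefore mixed, with falls in 3 of its 13 groups of genes and values near 0 in most of the rest.

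**Figure D1:**
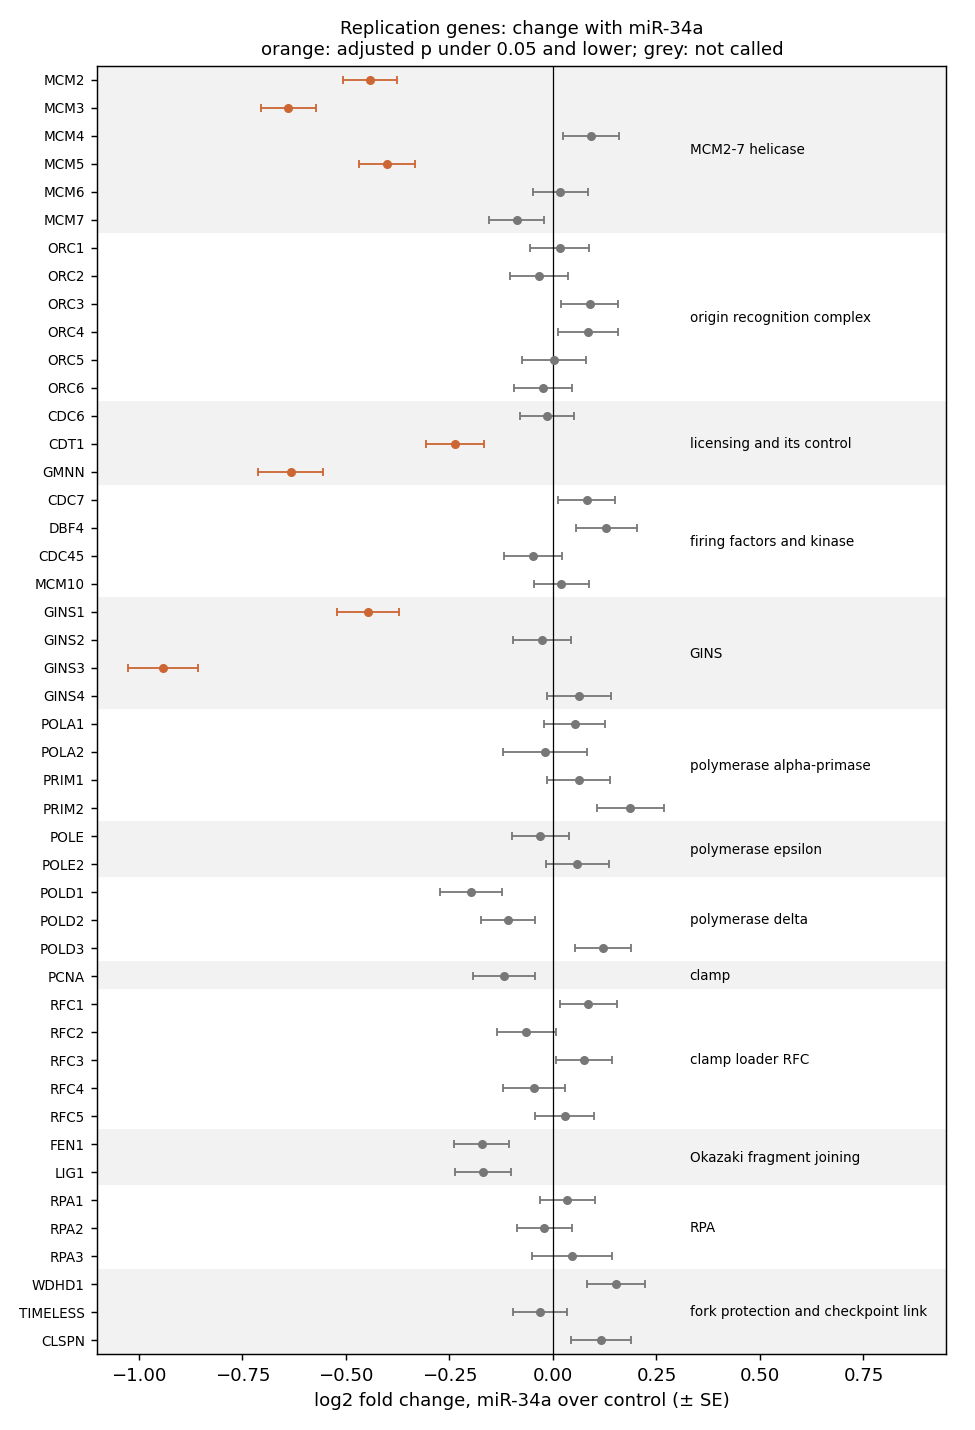
Log2 fold change of each of the 46 genes, miR-34a over control, with its standard error, grouped by complex; orange points are the 7 genes called lower and grey points the 39 not called. GINS3 lies farthest to the left at -0.94, and the uncalled genes lie between -0.20 and 0.19.

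The MCM2-7 helicase is a ring of 6 related ATPases present once each, and 3 of its 6 genes fell. MCM3 (chromosome 6, 52264009 to 52284881, GRCh38) stood at 484, 488 and 480 CPM in the control and 325, 309 and 299 CPM with miR-34a. MCM2 (chromosome 3, 127598223 to 127622436) stood at 255, 257 and 255 CPM in the control and 195, 179 and 190 CPM with miR-34a. MCM5 (chromosome 22, 35400063 to 35425430) stood at 248, 263 and 244 CPM in the control and 200.01, 186 and 186 CPM with miR-34a. In each of the 3 genes all miR-34a libraries were below all control libraries. The fall of MCM3 was 1.56-fold, a log2 fold change of -0.64 ± 0.07 (SE), with edgeR adjusted p = 1.7e-07. MCM2 fell 1.36-fold, by 0.44 ± 0.07 on the log2 scale (adjusted p = 3.6e-05), and MCM5 fell 1.32-fold, by 0.40 ± 0.07 (adjusted p = 0.00015). MCM2 shares 22.7% of its exonic length with an unnamed gene on the opposite strand that had 0.505 CPM in the control, and the libraries do not mark strand.

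The other three subunits did not pass the test. MCM4 stood at 675, 613 and 663 CPM in the control and 684, 689 and 708 CPM with miR-34a, so that its groups did not overlap and lay in the opposite order to those of MCM3. MCM6 stood at 319, 300.04 and 314 CPM in the control and 329, 308 and 308 CPM with miR-34a, and MCM7 at 591, 618 and 626 against 603, 565 and 558 CPM. The groups of MCM6 and of MCM7 overlapped. Log2 fold changes were 0.09 ± 0.07 (SE) for MCM4, 0.02 ± 0.07 for MCM6 and -0.09 ± 0.07 for MCM7, with edgeR adjusted p = 0.45, 0.91 and 0.47. MCM7 shares 8.94% of its exonic length with AP4M1, a gene on the opposite strand at 10.2 CPM in the control.

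**Figure D2:**
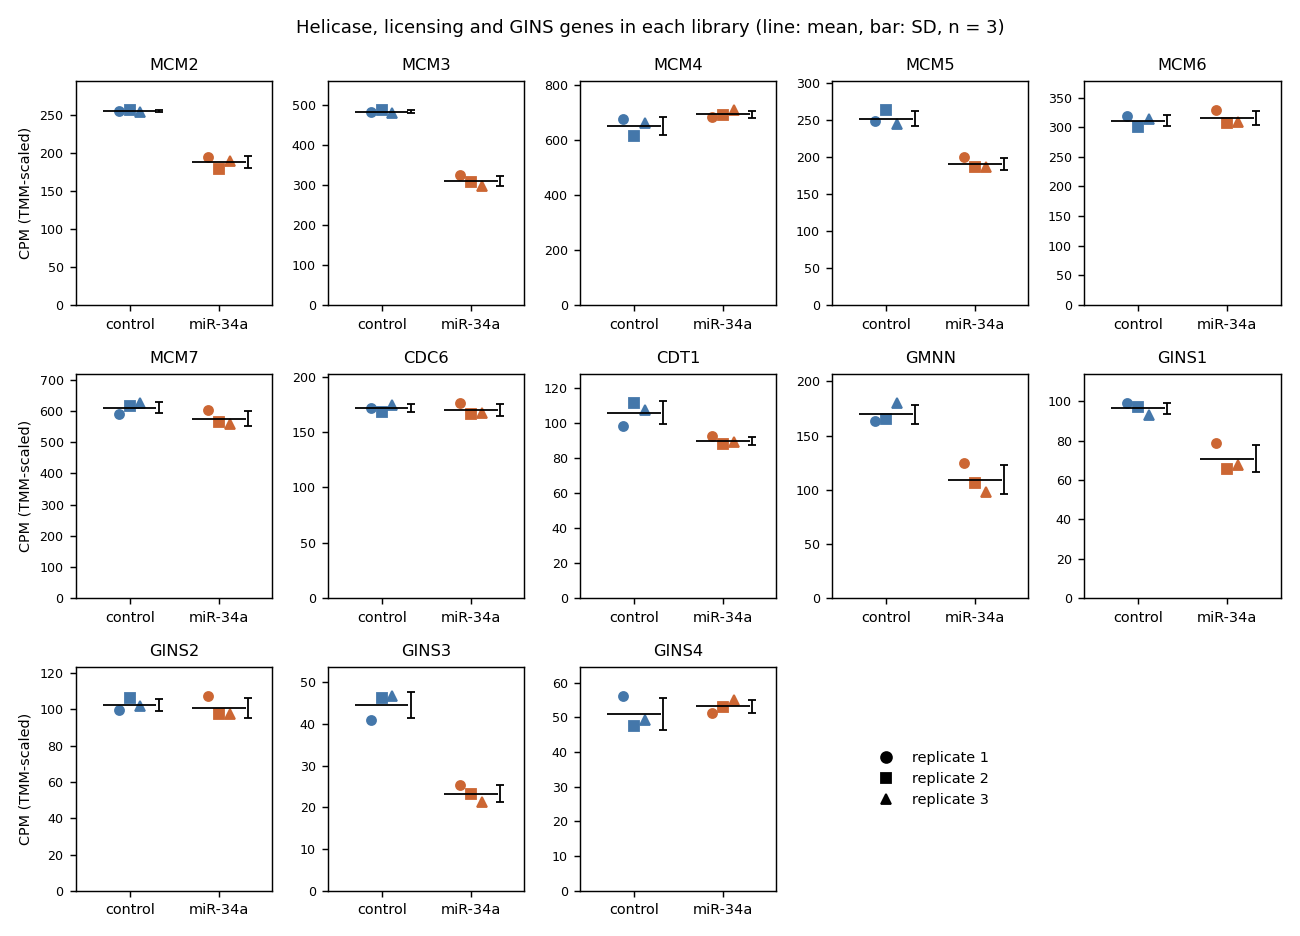
CPM of the helicase, licensing and GINS genes in each library, on axes that start at 0; blue points are control and orange points miR-34a libraries, the line is the mean and the bar the SD (n = 3). For MCM2, MCM3, MCM5, CDT1, GMNN, GINS1 and GINS3 every orange point lies below every blue point, and for MCM4 every orange point lies above.

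Because the subunits work in equal numbers in one ring, the balance between their transcripts was compared within each library, as the log2 CPM of a subunit minus the mean log2 CPM of the other 5. For MCM3 this balance was 0.34, 0.37 and 0.33 in the control libraries and -0.11, -0.10 and -0.17 with miR-34a, a difference of -0.48. It moved by -0.24 for MCM2 and by -0.19 for MCM5, and by 0.40 for MCM4, 0.31 for MCM6 and 0.19 for MCM7. In none of the 6 did the groups overlap, and the exact two-sided permutation p was 0.1 for each (0.1 adjusted over the 6), the smallest that 3 libraries against 3 can give. The 6 balances are built from the same 6 levels in each library, among them the falls of MCM2, MCM3 and MCM5 already called. They are therefore neither 6 separate results nor support for those falls. No share over all genes was computed for this measure. A rise of this measure for MCM4, MCM6 and MCM7 follows from the falls of the other three and is no rise in level. The measure depends on its reference: against the median of the other 5 in place of the mean, the differences of MCM2, MCM5 and MCM7 were 0.18, 0.22 and -0.09. That median was the level of MCM3 itself in all 3 control libraries for MCM2 and for MCM5. Against the median MCM3 had a difference of -0.66 and MCM6 of 0.66. These are the same difference with its sign reversed, since in every library each of the pair was the median for the other. It is therefore no separate shift of MCM6. The difference of MCM4 against the median was 0.10, beside 0.40 against the mean, with an exact permutation p of 0.3.

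**Figure D3:**
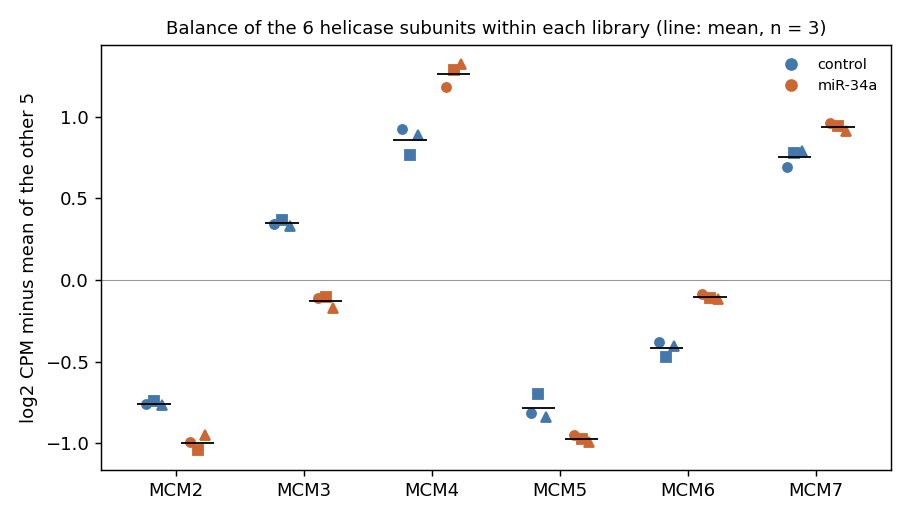
Balance of each helicase subunit in each library, as its log2 CPM minus the mean log2 CPM of the other 5 subunits; points are libraries, lines are means (n = 3), blue is control and orange miR-34a. The 3 control values of MCM3 lie at 0.33 to 0.37 and its 3 miR-34a values at -0.17 to -0.10.

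Among the genes that govern loading of the helicase, GMNN and CDT1 fell while CDC6 and the 6 ORC genes were not called. GMNN (chromosome 6, 24774931 to 24786099) stood at 163, 165 and 179.9 CPM in the control and 124, 106 and 97.8 CPM with miR-34a. Its fall was 1.55-fold, a log2 fold change of -0.63 ± 0.08 (SE), with edgeR adjusted p = 2.7e-06. CDT1 (chromosome 16, 88803213 to 88809258) stood at 98.3, 111 and 107 CPM in the control and 92.2, 87.6 and 89.1 CPM with miR-34a, a 1.18-fold fall of 0.24 ± 0.07 on the log2 scale (edgeR adjusted p = 0.025). In both genes the groups did not overlap, but for CDT1 the nearest libraries were only 98.3 and 92.2 CPM. The call of CDT1 was lost when control replicate 2, control replicate 3, miR-34a replicate 2 or miR-34a replicate 3 was left out, with edgeR adjusted p up to 0.13 and log2 fold changes of -0.28 to -0.20 over all 6 such fits.

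CDC6, the ATPase that joins ORC on the origin, stood at 172, 168 and 175 CPM in the control and 176, 167 and 167 CPM with miR-34a, a log2 fold change of -0.01 ± 0.07 (SE). The ORC genes had log2 fold changes from -0.03 to 0.09 with a median of 0.01 and edgeR adjusted p-values from 0.47 to 0.99, and none had an unadjusted p under 0.05. ORC2, a core subunit, stood at 97.0, 86.7 and 98.1 CPM in the control and 93.1, 93.8 and 88.4 CPM with miR-34a. ORC6, the smallest and most loosely held subunit, stood at 83.6, 78.5 and 87.1 CPM in the control and 85.3, 80.3 and 79.5 CPM with miR-34a. The groups of ORC2 and of ORC6 overlapped. Only ORC3 among the ORC genes had groups that did not overlap, and its nearest libraries were 75.3 CPM in the control and 75.5 CPM with miR-34a.

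Of the genes that convert the loaded ring into a moving helicase, GINS1 and GINS3 fell. GINS is a ring-shaped complex of 4 small subunits that joins MCM2-7 and CDC45 in the active helicase. GINS3 (chromosome 16, 58295080 to 58406144) stood at 41.0, 46.2 and 46.7 CPM in the control and 25.3, 23.3 and 21.3 CPM with miR-34a. GINS1 (chromosome 20, 25407727 to 25452628) stood at 99.1, 97.0 and 93.2 CPM in the control and 78.7, 65.8 and 67.9 CPM with miR-34a. The groups of both were well apart. GINS3 had the largest fall of the 46 genes, 1.92-fold, with a log2 fold change of -0.94 ± 0.08 (SE) and edgeR adjusted p = 1.6e-08. GINS1 fell 1.36-fold, by 0.45 ± 0.07 on the log2 scale (edgeR adjusted p = 0.00014). GINS3 shares 10.9% of its exonic length with an opposite-strand gene that was too low to be tested.

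The remaining GINS genes were not called. GINS2 stood at 99.8, 106 and 102 CPM in the control and 107, 97.5 and 97.6 CPM with miR-34a, and GINS4 at 56.1, 47.6 and 49.3 against 51.4, 53.0 and 55.2 CPM. Both pairs of groups overlapped, with log2 fold changes of -0.03 ± 0.07 and 0.06 ± 0.08 (SE). Of the firing factors, CDC7, the catalytic kinase subunit, stood at 169, 157 and 176 CPM in the control and 176, 186 and 169 CPM with miR-34a. MCM10, which helps the active helicase to form, stood at 145, 134 and 139.6 CPM in the control and 141, 140.2 and 143 CPM with miR-34a. The 4 firing genes CDC7, DBF4, CDC45 and MCM10 had overlapping groups, log2 fold changes from -0.05 to 0.13 and edgeR adjusted p-values from 0.29 to 0.89, none with an unadjusted p under 0.05.

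The 9 polymerase genes had no call in either direction, with a median log2 fold change of 0.05 and a range from -0.20 to 0.19. Polymerase alpha-primase makes the RNA-DNA primers, polymerase epsilon extends the leading strand and polymerase delta the lagging strand. POLA1, the catalytic subunit of polymerase alpha, stood at 164, 136 and 144 CPM in the control and 149.6, 152 and 159 CPM with miR-34a. POLE, the catalytic subunit of polymerase epsilon, stood at 272, 261 and 251 CPM in the control and 245, 245 and 277 CPM with miR-34a. Neither gene had groups that stood apart.

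The genes of polymerase delta lay on both sides of 0, and none passed the test. POLD1, the catalytic subunit, stood at 124, 126 and 110.5 CPM in the control and 111, 95.1 and 108 CPM with miR-34a. Its groups overlapped, and its log2 fold change of -0.20 ± 0.07 (SE) gave edgeR adjusted p = 0.090, the lowest among the uncalled genes. POLD2, an accessory subunit, stood at 154, 161 and 158 CPM in the control and 149, 145 and 145 CPM with miR-34a, without overlap (edgeR adjusted p = 0.33). POLD3, another accessory subunit, lay the other way, at 94.6, 89.4 and 92.3 CPM in the control and 103, 98.6 and 98.9 CPM with miR-34a, also without overlap (edgeR adjusted p = 0.29). PRIM2, the large primase subunit, stood at 38.6, 38.6 and 37.2 CPM in the control and 48.8, 42.0 and 39.6 CPM with miR-34a, a log2 fold change of 0.19 ± 0.08 (edgeR adjusted p = 0.15). POLA2 and PRIM1 had overlapping groups, and they share 35.1% and 14.9% of their exonic length with same-strand genes that were too low to be tested.

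The clamp and its loader were not called. PCNA, the sliding clamp that holds polymerase delta on DNA, stood at 336, 353 and 399 CPM in the control and 336, 355 and 312 CPM with miR-34a. Its groups overlapped, with a log2 fold change of -0.12 ± 0.07 (SE) and edgeR adjusted p = 0.36. The 5 genes of RFC, the ATPase that opens PCNA and places it on primed DNA, had log2 fold changes from -0.06 to 0.08, a median of 0.03 and edgeR adjusted p-values from 0.50 to 0.85. RFC1, the large subunit, stood at 158, 139.5 and 149.6 CPM in the control and 153, 159 and 162 CPM with miR-34a. RFC3, one of the small subunits, stood at 145, 135 and 133 CPM in the control and 152, 139.9 and 144 CPM with miR-34a. All 5 RFC genes had overlapping groups and none had an unadjusted p under 0.05.

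FEN1 and LIG1, the flap endonuclease and the ligase that finish Okazaki fragments, were lower without passing the test. FEN1 stood at 194, 201 and 204 CPM in the control and 184, 179 and 169 CPM with miR-34a. LIG1 stood at 124, 116 and 116 CPM in the control and 102, 104 and 109.98 CPM with miR-34a. In both genes every miR-34a library was below every control library. Log2 fold changes were -0.17 ± 0.07 (SE) for each, with edgeR adjusted p = 0.10 and 0.11, and DESeq2 called FEN1 lower (adjusted p = 0.048). FEN1 shares 6.70% of its exonic length with TMEM258 on the opposite strand, which stood at 38.2 CPM in the control.

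RPA coats the single strands behind the helicase, and its 3 genes had log2 fold changes from -0.02 to 0.05. RPA1, the large subunit, stood at 337, 345 and 359.96 CPM in the control and 367, 355 and 346 CPM with miR-34a. RPA2, the middle subunit, stood at 209, 210.2 and 218 CPM in the control and 210.5, 217 and 200.2 CPM with miR-34a. The groups overlapped in all 3 RPA genes, and none had an unadjusted p under 0.05. Of the genes that tie the helicase to the polymerases and the checkpoint, TIMELESS stood at 254, 249 and 257 CPM in the control and 243, 247 and 253 CPM with miR-34a. CLSPN, the gene of the checkpoint mediator claspin, stood at 138, 118 and 125 CPM in the control and 129, 136 and 147 CPM with miR-34a. WDHD1, the human counterpart of the yeast polymerase alpha anchor Ctf4, stood at 102, 95.5 and 105 CPM in the control and 106, 119 and 112 CPM with miR-34a. The groups of TIMELESS and CLSPN overlapped, whereas those of WDHD1 did not (log2 fold change 0.15 ± 0.07, edgeR adjusted p = 0.18).

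Matches to the miR-34a-5p seed in the 3′ UTR were searched in the transcript of each gene with the longest coding sequence. An 8mer is CACTGCCA, a 7mer-m8 CACTGCC, a 7mer-A1 ACTGCCA and a 6mer ACTGCC, and each longer match contains the 6mer. A 7mer or 8mer was found in 3 of the 46 genes (6.52%), beside 20.9% of 12895 tested genes searched alike. These were GINS3 with an 8mer, GINS4 with a 7mer-m8 and POLD3 with a 7mer-A1. Searching every coding transcript also gave 3 genes, beside 25.9%. The genes were not matched for 3′ UTR length, which ran from 63 (POLD1) to 5113 bases (ORC4) among the 46. The shares therefore do not show that these genes hold fewer matches for their length. A 6mer only was present in GMNN, GINS1, MCM5 and RFC5. Thus of the 7 genes that fell, GINS3 alone held a 7mer or 8mer there, 3 held a 6mer, and MCM2, MCM3 and CDT1 held none. A match is a description of the sequence, not evidence of binding.

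A search of the coding sequence was added after the values were seen. It found a 7mer or 8mer in 13 of the 46 genes (28.3%), beside 27.8% of the tested genes. Of the 7 genes that fell, 2 held one (28.6%), a share near that of all tested genes. MCM2, which fell, held an 8mer in exon 8 of 16, while MCM3 held no match of any kind in either region. The sequences are shown to compare the match of the gene with the largest fall, that of a gene that was not called, and the one in the coding sequence of MCM2, which fell. Each line gives the match in capitals after the 22 bases before it, on the strand of the transcript. The match of GINS3 lies at chr16:58405009-58405016 (plus strand, exon 4 of 4), 280 bases into a 3′ UTR of 752. That of POLD3 lies at chr11:74640767-74640773 (plus strand, exon 12 of 12) and starts at the first base after the stop codon. That of MCM2 lies at chr3:127608876-127608883 (plus strand). All positions are on GRCh38.
GINS3 3′ UTR 8mer: aaagtccttcctaaataagaatCACTGCCA
POLD3 3′ UTR 7mer-A1: tggcttcttccagaggaaataaACTGCCA
MCM2 coding sequence 8mer: acaactatgatggctccctcaaCACTGCCA

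Promoter windows, from 250 bases before to 50 after a RefSeq start (GRCh38.p14), were present for 40 of the 46 genes. The genes with no window here are MCM4, MCM5, GINS4, POLD3, RPA2 and RPA3. E2F-type strings were searched on both strands as TTTCCCGC, TTTGGCGC, TTTCGCGC and TTTGCCGC. They were present in 20 of the 40 genes, beside 3.99% of 27305 genes with a window. The 40 are all among the genes tested, but the 27305 were not limited to tested genes. Counted over windows, 40.0% of 50 held one, beside 3.31% of 35116. With the first pair of strings only, 18 of the 40 genes held a match, beside 2.75% of all genes with a window. All 6 called genes with a window held a match, namely MCM2, MCM3, CDT1, GMNN, GINS1 and GINS3, and so did 14 of 34 uncalled genes. Of those 14, LIG1 was lower and ORC3 higher without overlap between the groups. The groups overlapped in the rest, namely MCM6, MCM7, CDC6, CDC7, GINS2, POLA1, POLA2, POLE, POLE2, PCNA, RFC3 and CLSPN. The strings were thus present on both sides of the threshold.

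CCAAT, the letters bound by the factor NF-Y, was present in 23 of the 40 genes (57.5%), beside 39.7% of all genes with a window, tested or not. It was in 3 of the 6 called genes and 20 of 34 uncalled ones. TTTGAA, the letters of the cell cycle homology region of many mitotic genes, was in 1 of the 40, DBF4, beside 18.2% of all genes with a window. Both strings were searched on either strand, and a base may belong to more than one match. The windows of the 4 called genes with the lowest adjusted p are shown, from 200 bases before to 20 after the start, with E2F-type matches in capitals. That of GINS3 is chr16:58392271-58392490 (plus strand), with the match beginning 5 bases before the start. That of MCM3 is chr6:52284723-52284942 (minus strand), with matches that begin 174 and 4 bases before the start. That of GMNN is chr6:24775213-24775432 (plus strand), with the match beginning 80 bases before the start. That of MCM2 is chr3:127598211-127598430 (plus strand), and its pair of matches, one on each strand, forms a single palindrome just after the start.
GINS3 promoter: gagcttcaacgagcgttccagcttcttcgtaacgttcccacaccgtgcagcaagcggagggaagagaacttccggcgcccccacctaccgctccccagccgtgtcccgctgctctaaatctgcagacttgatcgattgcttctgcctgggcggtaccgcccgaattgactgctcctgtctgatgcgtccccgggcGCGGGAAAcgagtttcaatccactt
MCM3 promoter: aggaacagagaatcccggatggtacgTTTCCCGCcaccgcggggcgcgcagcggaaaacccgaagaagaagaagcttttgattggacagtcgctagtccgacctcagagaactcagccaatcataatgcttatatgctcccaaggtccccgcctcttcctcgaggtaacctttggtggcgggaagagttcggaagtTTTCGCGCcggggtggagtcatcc
GMNN promoter: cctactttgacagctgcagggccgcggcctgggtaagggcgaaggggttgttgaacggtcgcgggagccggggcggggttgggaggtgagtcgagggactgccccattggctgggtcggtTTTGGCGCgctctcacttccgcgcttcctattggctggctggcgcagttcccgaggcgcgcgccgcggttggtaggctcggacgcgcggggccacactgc
MCM2 promoter: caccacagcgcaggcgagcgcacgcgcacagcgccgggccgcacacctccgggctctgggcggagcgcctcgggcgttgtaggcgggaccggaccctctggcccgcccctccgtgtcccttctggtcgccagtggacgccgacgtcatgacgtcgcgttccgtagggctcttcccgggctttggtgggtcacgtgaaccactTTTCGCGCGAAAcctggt

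Levels were compared between genes only per exonic length, as TPM, the share of a transcript pool once counts are divided by length. In the control libraries PCNA was the highest of the 46 at 931 ± 69.6 TPM (SD, n = 3) and POLA2 the lowest at 16.0 ± 1.62 TPM, with a median over the genes of 94.4 TPM. POLA2 was also the lowest with the length of its longest coding transcript, at 14.2 TPM. It shares 35.1% of its exonic length with a same-strand gene, and how reads there were counted is not known, so its level is uncertain. Along this order the ranges of 28 of the 45 neighbouring pairs overlapped, so most neighbours did not differ beyond their spread. The MCM2-7 genes lay between 130 TPM (MCM5) and 527 TPM (MCM7), a 4.06-fold span for subunits of the same ring. The span depends on the length used, and was narrower with that of the longest coding transcript, from 156 to 456 TPM. MCM3 was at 501 ± 20.5 TPM in the control and 328 ± 14.7 TPM with miR-34a. The ORC genes lay lower, from 28.1 TPM (ORC4) to 80.3 TPM (ORC1). GINS3 was at 33.1 ± 2.65 TPM in the control and 17.6 ± 1.36 TPM with miR-34a. Its control libraries, at 30.2 to 35.4 TPM, overlapped those of GINS4, at 33.1 to 38.6 TPM. GINS2 had the highest control mean of the GINS genes at 119 ± 7.30 TPM. GINS1 was at 89.7 ± 4.92 TPM in the control and 67.1 ± 7.27 TPM with miR-34a. With the length of the longest coding transcript in place of all exons, the ranks had a Spearman rho of 0.93 with these over the 46 genes, which share their counts, and PCNA was at 588 TPM. Orders within complexes changed with that length, GINS3 being at 57.0 and GINS4 at 29.3 TPM, MCM2 at 156 and MCM5 at 157 TPM, and ORC6 at 113 TPM above ORC1 at 46.9 TPM.

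**Figure D4:**
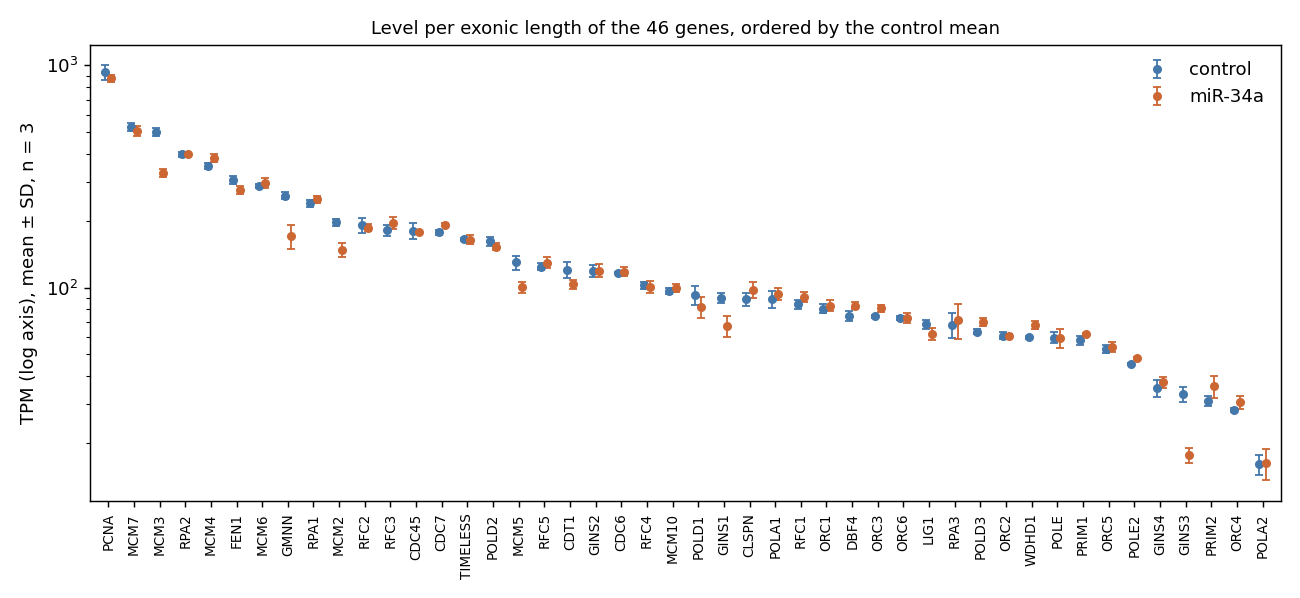
TPM of the 46 genes on a log axis, ordered by the control mean; points are means and bars the SD (n = 3), blue for control and orange for miR-34a. PCNA stands at the left at 931 TPM and POLA2 at the right at 16.0 TPM in the control, and MCM3, GMNN and GINS3 show the orange point clearly below the blue.

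Genes around the core machinery were counted from lists of their own, beside 6.70% called lower and 5.38% called higher over all genes tested. Of 20 other regulators of origin licensing and firing, 3 fell and none rose. CDC25A, the phosphatase that activates CDK2, fell from 207 ± 11.97 to 157 ± 7.21 CPM (SD, n = 3; edgeR adjusted p = 0.00027). CCNE1, the cyclin E partner of CDK2, fell by 0.28 on the log2 scale, and DBF4B, the alternative CDC7 activator, by 0.24. CDC25A kept its call in all 6 fits that left out a library, CCNE1 in 4 and DBF4B in 2. None of the list rose by edgeR, but 3 uncalled genes were higher and 2 lower at an unadjusted p under 0.05. Over all genes tested, 1031 of 15322 uncalled genes were higher and 1123 lower at that level. DESeq2 and limma voom each called 2 higher, RIF1 and CUL4B, named after their values were seen, beside 7.49% and 5.42% of all genes. Each also called CDC25A, CCNE1 and DBF4B lower, beside 8.28% and 6.69%. Of 30 other fork, clamp, nuclease and chromatin assembly genes, 1 rose and none fell. That was DNA2, a nuclease-helicase, with a log2 fold change of 0.22 and edgeR adjusted p = 0.048, which kept its call in 1 of the 6 fits. By edgeR none of these 30 fell. At an unadjusted p under 0.05, 1 uncalled gene was lower and 4 higher, beside the counts over all genes given above. Of the same 30, limma voom called 1 lower and DESeq2 none.

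Of the checkpoint genes 7 of 10 and of the translesion genes 11 of 12 had a log2 fold change above 0, beside 8598 of 17427 genes tested. Of the 10, 3 rose and none fell (nor by DESeq2 or limma voom, or at an unadjusted p under 0.05), beside 5.38% of all genes called higher. These were the kinase ATR (log2 fold change 0.30), its activator ETAA1 (0.25) and the kinase WEE1 (0.22). With a library left out, ATR and ETAA1 kept their calls in 3 of 6 fits and WEE1 in 1. ATR shares 16.4% of its exonic length with an opposite-strand pseudogene that was too low to be tested. Of 12 genes of translesion synthesis and bypass 4 rose, 1 fell and 7 were not called, with a median log2 fold change of 0.17. POLH, polymerase eta, rose from 39.1 ± 2.10 to 50.6 ± 3.17 CPM (SD, n = 3; edgeR adjusted p = 0.0014), and REV3L, the catalytic subunit of polymerase zeta, from 61.7 ± 6.03 to 81.0 ± 11.9 CPM (edgeR adjusted p = 0.0032). Both kept their calls in all 6 fits. POLK and PRIMPOL also rose, by log2 fold changes of 0.35 and 0.37, with calls kept in 4 and 1 of the 6 fits. PRIMPOL, at 9.15 CPM in the control, shares 12.2% of its exonic length with CENPU, at 89.9 CPM on the opposite strand. MAD2L2, an accessory subunit of polymerase zeta, fell by 0.28, with its call kept in 2 fits.

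Of 13 genes of the E2F, DP and pocket protein families, 2 fell and 2 rose, beside 6.70% and 5.38% of all genes. E2F3, an activating E2F, fell from 121 ± 4.32 to 97.9 ± 3.69 CPM (SD, n = 3; edgeR adjusted p = 0.0031). E2F5, which pairs with the pocket proteins p107 and p130 as a repressor, fell from 31.9 ± 2.998 to 15.1 ± 1.69 CPM (edgeR adjusted p = 1.6e-08). E2F5 shares 16.4% of its exonic length with RBIS on the opposite strand, at 30.9 CPM in the control. RBIS was not called, with a log2 fold change of -0.14 (edgeR adjusted p = 0.33). How far reads from the shared part enter the counts of E2F5 was not tested, so the size of its fall is uncertain. RBL1 and RBL2, the genes of p107 and p130, rose with log2 fold changes of 0.27 and 0.28. E2F3 and E2F5 kept their calls in all 6 fits that left out a library, RBL1 in 4 and RBL2 in 3. Of 20 markers of G2 and mitosis 1 fell and 1 rose, PLK1 at -0.21 and KIF23 at 0.22 on the log2 scale. Each kept its call in 1 of the 6 fits. The median of the 20 was 0.07, and 13 lay above 0, beside 8598 of 17427 genes tested. Without overlap between the groups 7 were higher and 2 lower, beside 13.1% and 14.2% of all genes. At an unadjusted p under 0.05, 6 uncalled genes were higher and 2 lower, beside 1031 and 1123 of 15322 uncalled genes. NUSAP1, among the 20, stood at only 0.925 CPM in the control. DESeq2 called 1 of the 20 lower and 4 higher, beside 8.28% and 7.49% of all genes it tested, and limma voom 1 lower and 1 higher. The part of cell-cycle phase in the replication gene results was not tested.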

How the data were processed

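RNA from HEK293T cells was sequenced in 6 libraries, 3 per group, made with an unstranded kit. The deposited values are raw, unscaled counts per Ensembl gene. Per the submitters' processing notes, the authors' tools included STAR 2.7.11a, edgeR 3.42.4, featureCounts and Subread 2.0.3, with the build GRCh38. The sources used here do not name the annotation release, the strandedness of counting or the handling of multimapping reads. Of 16 pseudogenes whose symbols derive from 9 of the genes, 1, of DBF4, passed the filter, with at most 46 counts.

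Genes were kept by filterByExpr at its defaults (minimum count 10, total 15), scaled by TMM factors (0.981 to 1.016) and tested between groups over all 6 libraries by the edgeR (4.0.16, R 4.3.3) quasi-likelihood method without covariates. Benjamini-Hochberg adjustment ran over 17427 genes, and an adjusted p under 0.05 is a call. A standard error is the absolute log2 fold change divided by the square root of the F statistic. Library pairs within a group differed by a chi-square per degree of freedom of 7.64 to 14.4, more than counting noise alone would give. That cannot show whether they came from separate cultures. Each was treated as its own sample because the labels call them biological replicates.

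Symbols were found for 62541 of 63140 identifiers. Transcripts, UTRs and exonic lengths come from GENCODE release 29, which holds no MANE tags, so the transcript with the longest coding sequence was used, with a 3′ UTR of at least 50 bases. The miRNA and promoter sequences are from RefSeq (GRCh38.p14). TPM left out 5014 identifiers with no length. The 46 genes and the other lists were chosen with earlier results of these data known. Called genes and MCM2-7 are given per library, of other complexes the 2 genes with the highest mean CPM, and of other lists up to 3 called genes with the lowest adjusted p. Further names were chosen after their values were seen. The test was checked on simulated data, with planted changes larger than the falls of MCM2, MCM5, GINS1 and CDT1. The check does not reach changes as small as theirs. Coding sequence matches are counted, and only that of MCM2 is shown. Alternatives were other size factors, other filters, DESeq2 1.42.0, limma 3.58.1 voom, a replicate block and each library left out.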

Additional observations from a re-analysis of the deposited data

How the results depend on the processing

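With other size factors, library size alone, no filter, a filter of 1 CPM in 3 libraries or limma voom, the same 7 of the 46 genes were lower, and DESeq2 called 8, FEN1 being the addition. With the replicate number as a block, 6 genes were lower (CDT1 was lost at edgeR adjusted p = 0.061), with 1023 genes lower and 807 higher over all genes. The labels do not say whether same-numbered libraries were paired. Their deviations from the group means correlated at -0.03, 0.02 and -0.08, and not every library correlated best with its own number. With 3 libraries per group these values cannot settle whether a batch was shared. Leaving out each library gave 6 to 7 lower genes. No setting called any of the 46 higher. GINS3, MCM3, GMNN, MCM2, GINS1 and MCM5 kept their calls in all 13 other fits. Over all genes, leaving out a library gave 727 to 1394 lower and 525 to 1287 higher, against 1167 and 938, with 727 lower and 604 higher without miR-34a replicate 2, 525 higher without control replicate 2 and 606 higher without control replicate 3. Against the median of the other 5 subunits, the balance of MCM2, MCM5 and MCM7 was 0.18, 0.22 and -0.085, in place of -0.24, -0.19 and 0.19. That is a property of the reference, since for MCM2 and MCM5 the control median is the level of MCM3. In the coding sequence 13 genes held a 7mer or 8mer, in place of 3 in the 3′ UTR, a search added after seeing the data. With 2 of the E2F-type strings, 18 promoters held a match in place of 20.

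Standard errors of the log2 fold changes of the 46 genes were 0.06 to 0.10, and an uncalled gene is not shown to be unchanged. The exact permutation test of the balance cannot go below p = 0.1.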
